A study of Mus musculus with 4 samples.

Results

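The colony-stimulating factors and their receptors are a family of 8 genes, taken by their symbols from the 32285 genes counted in mammary tumors of PyMT mice. They are the ligands Csf1, Il34, Csf2 and Csf3 and the receptor genes Csf1r, Csf2ra, Csf2rb and Csf3r. No threshold on a level was part of the rule, and none of them served as a marker of a cell class. All 8 had unique molecular identifiers (UMIs, each marking 1 captured RNA molecule), and all 8 passed the filter on low counts in the model of cell classes.

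Tumors were sequenced with the 10x Genomics 3' v3 kit in 4 libraries, each taken here to stand for 1 mouse. The control genotype, MMTV-Cre-; Frmd8 fl/fl; PyMT, gave replicates 1 and 3 (called Cre-). The deletion genotype, MMTV-Cre+; Frmd8 fl/fl; PyMT, gave replicates 2 and 4 (called Cre+), and all animals were aged 17 to 18 weeks. The floxed Frmd8 alleles and the PyMT oncogene are thus common to both groups, which are told apart by Cre, driven by the MMTV promoter mainly in mammary epithelium. The floxed and PyMT lines had a C57BL/6 background, that of the Cre line is not given in the sources used here, and Cre+ animals are yellow and Cre- animals black in coat. The breeding yields littermates of both genotypes, but whether the sequenced mice were littermates is not stated. The cells were sorted before loading with a gate that the sources used here do not describe.

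Csf1 and Il34 are the ligands of Csf1r, the receptor on which tissue macrophages and monocytes depend. Csf2 (GM-CSF) binds Csf2ra, which signals through the shared beta subunit Csf2rb, and Csf3 (G-CSF) binds Csf3r and drives the production of neutrophils. In mammary tumors, ligand made by tumor and stromal cells is a known route by which macrophages and neutrophils are recruited.

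Barcodes with at least 1000 UMIs and at most 20% mitochondrial UMIs were used. Each was placed in a class when at least 4 different markers of that class had a UMI. Barcodes that passed for several classes were left out, with the following exceptions. Those that passed only for basal and luminal epithelial cells were kept as basal cells. Those that passed only for pericytes and fibroblasts were kept as pericytes. This gave 18936 cells of 23572 within the limits, from 4149 to 5698 per library, among them 8773 luminal epithelial cells, 5708 macrophages, 1243 fibroblasts and 410 neutrophils. Total UMIs per library ran from 112729231 to 157662955. Between 5 and 12 barcodes were shared by any pair of libraries, at most 0.289% of the smaller one. The leukocyte marker Ptprc lay between 218.5 and 2084.4 counts per 1000000 UMIs (CPM) in immune classes and between 0 and 3.71 CPM in epithelial and stromal ones. Frmd8, the targeted gene, stood in luminal cells at 24.4 and 23.9 CPM in the Cre- libraries and at 5.7 and 10.9 CPM in the Cre+ libraries, which do not overlap (log2 difference -1.45 ± 0.43 SE, edgeR quasi-likelihood test, Benjamini-Hochberg adjusted p = 1.0). In basal cells it stood at 26.0 and 23.9 CPM in Cre- and 3.51 and 3.09 CPM in Cre+, the latter from only 1 and 15 UMIs. It was also lower without overlap in Cre+ T cells (33.5 and 31.9 CPM, against 64.9 and 59.4 CPM in Cre-) and in Cre+ macrophages (18.1 and 13.8 CPM, against 25.3 and 24.2 CPM, -0.51 ± 0.18, edgeR adjusted p = 1.0). Fibroblasts and NK cells went the same way, while endothelial cells, pericytes, B cells, monocytes, neutrophils and conventional dendritic cells overlapped. Separation of 2 mice from 2 is common by chance, so whether Frmd8 was lower outside epithelium is not settled. Cre+ replicate 4 was deposited with all its barcodes and an older pipeline version, while the other libraries hold called cells only. Sums over a class were divided by the UMIs of that class to give a CPM level, and each level is compared between classes and mice for the same gene. For pairs of genes, only their ratio is compared between classes. In the GENCODE annotation of GRCm38, Csf1 lies on chromosome 3, Csf3r on 4, Il34 on 8, Csf2 and Csf3 on 11, Csf2rb on 15 and Csf2ra on 19, while the build of the deposited counts is not given in the sources used here.

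The promoters of Csf2ra and Csf3r are shown because both receptors were detected chiefly in myeloid cells, whose regulator PU.1 (Spi1) binds purine-rich sites with the core GAGGAA. RefSeq promoters (GRCm38.p6, from 250 bases before to 50 after the start) matched 4 of the 8 genes, Csf1, Csf2, Csf2ra and Csf3r. GAGGAA, searched on both strands and drawn in capitals, occurs at 2 places in Csf2ra (chr19:61228369-61228668, minus strand) and at 1 place in Csf3r (chr4:126024409-126024708, plus strand). It was absent from those windows of Csf1 and Csf2, and 28.3% of 32851 mouse promoters hold it.
Csf2ra: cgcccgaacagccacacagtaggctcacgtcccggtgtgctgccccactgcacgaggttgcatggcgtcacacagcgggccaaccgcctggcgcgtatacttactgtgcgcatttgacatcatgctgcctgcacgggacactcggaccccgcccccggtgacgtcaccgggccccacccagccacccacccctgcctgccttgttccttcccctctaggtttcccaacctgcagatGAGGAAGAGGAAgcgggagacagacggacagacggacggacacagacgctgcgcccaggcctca
Csf3r: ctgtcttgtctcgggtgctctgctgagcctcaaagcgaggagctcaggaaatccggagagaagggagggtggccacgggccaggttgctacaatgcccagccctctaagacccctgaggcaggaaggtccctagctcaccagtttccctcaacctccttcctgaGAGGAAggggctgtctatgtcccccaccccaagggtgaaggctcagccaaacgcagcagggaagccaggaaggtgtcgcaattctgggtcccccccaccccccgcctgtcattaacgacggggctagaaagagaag

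Csf1, the main ligand of Csf1r, had its highest levels in neutrophils and fibroblasts, and lower ones in pericytes and epithelial cells. In neutrophils the level was 318.3 and 345.7 CPM in the Cre- libraries and 293.3 and 465.3 CPM in the Cre+ libraries. In fibroblasts it was 188.3 and 194.2 CPM in Cre- and 191.4 and 220.3 CPM in Cre+. All neutrophil libraries thus lay above all fibroblast libraries, and the fibroblast libraries above those of every other class with at least 10 cells in each library. Pericytes followed at 30.4, 82.1, 93.1 and 80.7 CPM in replicates 1 to 4. Their range touched that of basal epithelial cells (16.5 to 35.1 CPM) through replicate 1 alone. Basal, luminal (15.5 to 38.9 CPM) and endothelial cells (8.35 to 21.6 CPM) overlapped as well. Overlap of ranges does not show equal levels of these neighbors in the order, and pericytes were not tested against basal cells. Macrophages, the cells that respond to Csf1, held between 3.37 and 8.84 CPM of it, and in mature dendritic cells no UMI was counted. The 1 to 9 mast cells or basophils per library gave 7 Csf1 UMIs in all, too few to place.

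The neutrophil level rested on small sums, 280, 28, 115 and 125 UMIs in replicates 1 to 4, since neutrophils were shallow cells with median depths of 3552 to 3815.5 UMIs. After thinning each cell to 1000 UMIs, 18.7% ± 5.63 (SD, n = 4) of neutrophils and 16.6% ± 3.75 (SD, n = 4) of fibroblasts kept a Csf1 UMI, against 2.07% ± 0.871 (SD, n = 4) of luminal cells and 0.425% to 0.94% of macrophages. Without thinning the shares were 42.9%, 78.8% and 25.1% for neutrophils, fibroblasts and luminal cells.

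The compartment that held most of the Csf1 UMIs differed between mice. Epithelial cells held 44.3% and 28.5% of all Csf1 UMIs of the classed cells in Cre- replicates 1 and 3, and 21.9% and 68.2% in Cre+ replicates 2 and 4. Stromal cells (fibroblasts, pericytes and endothelial cells) held 40.4%, 75%, 61.5% and 17.9% in replicates 1 to 4. Fibroblasts led in replicates 2 and 3 and luminal cells in replicates 1 and 4, which splits both genotypes. Stromal cells were 11.4%, 14.6%, 14.8% and 4.29% of the classed cells in the same order, so their lowest share of Csf1 came from the library with the fewest stromal cells. Neutrophils, in spite of their level, held between 0.802% and 11.1%.

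**Figure D1:**
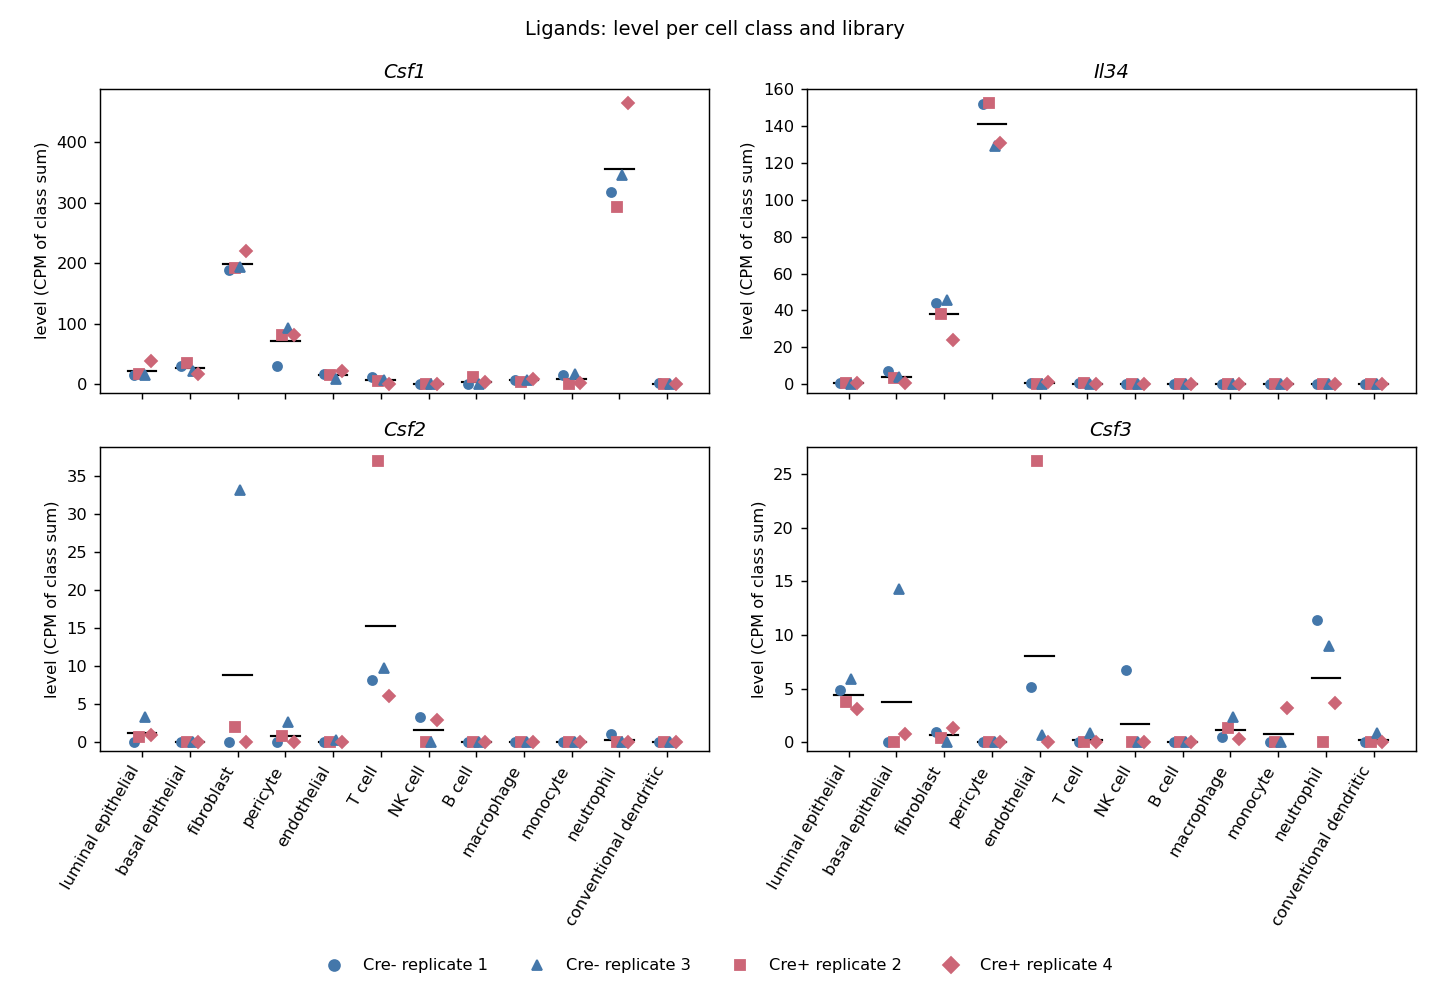
Level of each ligand (CPM of the summed counts, linear axis from near 0) in 12 cell classes, with 1 point per library (blue circles and triangles Cre-, red squares and diamonds Cre+) and a bar at the mean of the 4 libraries. Csf1 stands out in neutrophils (293.3 to 465.3 CPM) and fibroblasts (188.3 to 220.3 CPM) and Il34 in pericytes (129.1 to 152.6 CPM). The highest Csf2 and Csf3 points are single libraries. T cells held Csf2 (6.14 to 36.9 CPM) and luminal cells Csf3 (3.08 to 5.95 CPM) in all 4 libraries.

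Il34, the second ligand of Csf1r, had its highest level in pericytes. Pericytes, the mural cells of small vessels, held 152.0, 152.6, 129.1 and 130.8 CPM in replicates 1 to 4. Fibroblasts held 44.3, 38.1, 45.6 and 23.8 CPM. The pericyte libraries all lay above the fibroblast libraries, with means 3.71-fold apart, and the fibroblast libraries all lay above the basal epithelial ones (0.825 to 7.1 CPM).

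Luminal cells held between 0.302 and 0.457 CPM of Il34, a mean of 0.391 CPM. No Il34 UMI was counted in neutrophils, monocytes, conventional dendritic, B or NK cells, and 0 to 3 UMIs per library in macrophages. After thinning, 18.9%, 20%, 10% and 18.4% of pericytes had an Il34 UMI in replicates 1 to 4, on 49 to 74 cells per library. Stromal cells together held 86.0% to 97.4% of all Il34 UMIs. The predicted genes Gm15894 and Gm15895 overlap Il34 on the other strand and are listed in the counts as genes of their own.

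Csf2, the growth factor of granulocytes and dendritic cells, was rare in every class, and a few cells decided where it was found. T cells held it in all 4 libraries, at 8.18 and 9.82 CPM in Cre- and 36.9 and 6.14 CPM in Cre+. These levels came from 15, 64, 22 and 16 UMIs in 6, 6, 12 and 10 T cells of replicates 1 to 4. Of the 64 UMIs of Cre+ replicate 2, 58 lay in 2 cells that carried Cd4 and fewer than 2 markers of regulatory T cells. Over the 4 libraries such CD4 cells held 60 Csf2 UMIs in 4 of 141 cells. Gamma-delta T cells held 19 UMIs in 8 of 69 cells (0 to 64.0 CPM per library), and CD8 T cells 17 UMIs in 10 of 526 cells.

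NK cells held 1 Csf2 UMI in replicate 1 and 5 in replicate 4, and the rest lay outside the lymphoid classes. Fibroblasts of Cre- replicate 3 held 294 Csf2 UMIs in 2 cells, those of Cre+ replicate 2 held 27 in 4 cells, and those of replicates 1 and 4 held 0. The 2 cells of replicate 3 had a median depth of 80056.5 UMIs, against 18724 for the other fibroblasts of that library. Luminal cells held 3, 31, 177 and 52 UMIs in 3, 6, 7 and 9 cells. Lymphoid cells therefore accounted for 80.0%, 52.0%, 4.42% and 28.4% of the Csf2 UMIs in replicates 1 to 4, and no single compartment led in every mouse. In macrophages 2 UMIs were counted in all, and in basal epithelial, B, monocyte and dendritic cells none. The predicted gene Gm12223 overlaps Csf2 on the other strand.

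Csf3, the neutrophil growth factor, lay mainly in luminal epithelial cells, at a low level. Luminal cells held 4.89 and 5.95 CPM in Cre- and 3.76 and 3.08 CPM in Cre+, from 170 to 336 UMIs per library. Epithelial cells held 90.1%, 70.0%, 84.9% and 89.9% of the Csf3 UMIs in replicates 1 to 4. Only 131, 66, 95 and 39 luminal cells had any, and these were deep cells, with median depths of 42478 to 52299 UMIs against 12261 to 20887.5 for the other luminal cells. After thinning, 0.377% ± 0.129 (SD, n = 4) of luminal cells had a Csf3 UMI, against 3.93% before it.

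The mean Csf3 level of endothelial cells, 8.02 CPM, was above that of luminal cells, 4.42 CPM, but rested on 1 library. Endothelial cells held 5.2, 26.2, 0.668 and 0 CPM in replicates 1 to 4, of which the 26.2 CPM came from 42 UMIs in 4 cells. Neutrophils held 10, 0, 3 and 1 UMIs of it and macrophages 6, 26, 53 and 13. Endothelial, neutrophil, luminal and basal ranges overlapped, and no order among them can be read from these levels. Hormone-sensing luminal cells held 149 Csf3 UMIs in 83 of 303 cells of Cre- replicate 1 (10.2 CPM, against 2.87 CPM in other luminal cells). In Cre- replicate 3 the order was the reverse, at 3.79 CPM (6 UMIs in 17 cells) against 6.02 CPM. Replicate 2 held 15 UMIs in 77 such cells (3.88 CPM), and replicate 4 held 0 UMIs in 3 cells.

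**Figure D2:**
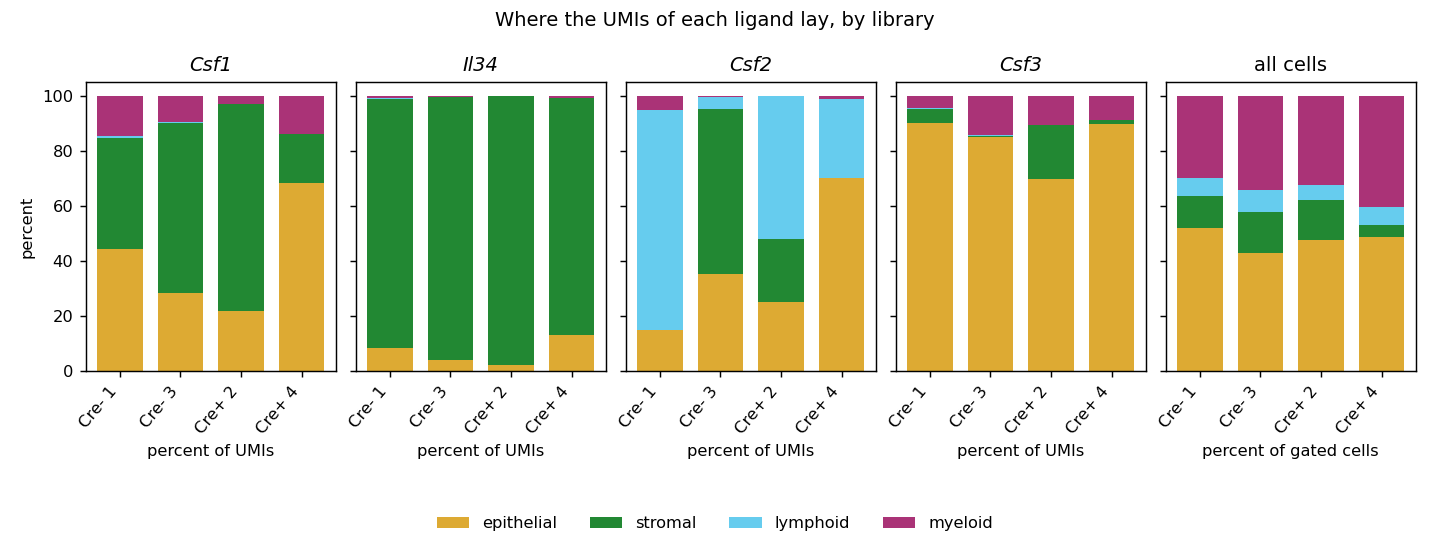
Share (percent) of the UMIs of each ligand that lay in epithelial, stromal, lymphoid and myeloid cells, 1 stacked bar per library, with the shares of the classed cells in the last panel. Il34 was 86.0% to 97.4% stromal and Csf3 70.0% to 90.1% epithelial in every library, while the main compartment of Csf1 and Csf2 changed from mouse to mouse.

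The fit of fibroblasts against luminal epithelial cells tested the stromal against the tumor-cell source. Csf1 was 9.99-fold higher in fibroblasts (log2 difference 3.32 ± 0.39 SE, edgeR adjusted p = 1.39e-09) and Il34 higher by 6.69 ± 0.4 on the log2 scale (adjusted p = 2.37e-14). Of the 8 members, 5 were higher and 2 lower in fibroblasts, against 26.7% and 26.3% of all 13235 genes tested. The median log2 difference of the members was 1.6, and that of all genes -0.06.

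The other calls of that fit rested on fewer molecules. Csf1r (1.69 ± 0.29, adjusted p = 3.86e-06) and Csf2rb (1.52 ± 0.4, adjusted p = 0.00152) were called higher in fibroblasts at levels of at most 8.01 and 2.92 CPM. Both are receptors of myeloid cells. Barcodes of 1 to 100 UMIs in Cre+ replicate 4, which hold free RNA, had Csf1r at 156.6 CPM and Csf2rb at 27.7 CPM, and the part of such RNA in the fibroblast counts was not tested. Csf2ra (-0.89 ± 0.26, adjusted p = 0.00312) and Csf3 (-2.88 ± 0.99, adjusted p = 0.0137) were lower in fibroblasts. Csf2 (3.02 ± 0.97, adjusted p = 0.00973) was called on the 2 cells of replicate 3, and without that library it stood at 0.88 ± 0.99 (adjusted p = 0.506), nor did DESeq2 call it (adjusted p = 0.152). The Csf2rb call was lost without the same library (adjusted p = 0.101), that of Csf3 without replicate 2 (0.0587) or 3 (0.0789) and with DESeq2 (0.136), that of Csf1r under upper limits of 5000 genes and 30000 UMIs (0.0665), and that of Csf2ra when cells of several classes were kept (0.329).

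Il34 was the only member called different between basal and luminal epithelial cells. Cre+ replicate 4 gave 215 of the 283 basal cells. Its basal cells held 85.2 CPM of Vim, against 1050.2, 873.8 and 744.1 CPM in replicates 1 to 3. Whether the basal class is of 1 kind across libraries was not tested. Il34 was higher in basal cells by 2.63 ± 0.55 (edgeR adjusted p = 0.00129), on 6, 1, 7 and 4 UMIs in replicates 1 to 4. This 1 higher and 0 lower call stood against 6.63% and 4.42% of all genes, of which 60% of the calls were higher in basal cells (79.6% with the size factors of DESeq2, which move the median of all genes from -0.16 to 0.016). With the mouse as a block the calls were 1048 higher and 917 lower, against 878 and 585 without it. Csf1 did not pass the test (-0.049 ± 0.41, adjusted p = 0.972). Csf1 took positive values of up to 0.55 (without replicate 4) in some alternatives, DESeq2 size factors among them.

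Csf1r, the receptor of Csf1 and Il34, was highest in macrophages and monocytes. Macrophages held 661.4 and 666.5 CPM in Cre- and 788.0 and 514.8 CPM in Cre+, and monocytes held 543.0, 527.2, 434.0 and 396.6 CPM in replicates 1 to 4. The ranges of these classes overlapped and the fit of monocytes against macrophages did not call a difference (-0.46 ± 0.26, edgeR adjusted p = 0.248). Neutrophils followed at 63.1 to 178.1 CPM apart from monocytes and from conventional dendritic cells (23.9 to 53.5 CPM). The latter overlapped B cells (0 to 33.9 CPM). Myeloid cells held 98.4% to 99% of all Csf1r UMIs.

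After thinning, 47.7%, 50.9%, 45.2% and 36.6% of macrophages had a Csf1r UMI in replicates 1 to 4. The share in luminal cells, which should lack the receptor, was 0.181% to 0.914%, at median depths of 12721 to 22507 UMIs against 10734 to 16816 in macrophages. Luminal levels were 1.19 to 2.81 CPM, and the part of free RNA in them was not tested. The gene Hmgxb3 overlaps Csf1r on the other strand, and reads shared by overlapping genes cannot be told apart without the strand setting of the counting.

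Csf2ra, the ligand-binding subunit of the GM-CSF receptor, was shared by all the main myeloid classes. Neutrophils held 328.5, 377.1, 315.7 and 186.1 CPM in replicates 1 to 4, monocytes 273.3, 347.6, 227.7 and 261.9 CPM, macrophages 288.0, 275.0, 235.5 and 208.9 CPM and conventional dendritic cells 143.4, 236.9, 176.5 and 162.2 CPM. The ranges of all these classes overlapped their neighbors, and each lay above the 29.1 CPM that was the highest luminal value.

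Luminal cells carried a further 16.3, 29.1, 22.5 and 17.1 CPM of Csf2ra, from 974 to 1315 UMIs per library. Per UMI of Csf1r there were 13.6, 11.1, 8.01 and 6.09 UMIs of Csf2ra in luminal cells of replicates 1 to 4, against 0.435, 0.349, 0.353 and 0.406 in macrophages. The ratio of every luminal library lay above that of every macrophage library. The barcodes of 1 to 100 UMIs in Cre+ replicate 4 held 525 UMIs of Csf2ra and 780 of Csf1r, and the part of free RNA in the luminal counts was not tested. Epithelial cells held 10.8% to 21.6% of all Csf2ra UMIs.

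Csf2rb, the beta subunit shared by the receptors for GM-CSF, IL-3 and IL-5, was highest in neutrophils among the classes of at least 10 cells per library. Neutrophils held 600.2 and 532.1 CPM in Cre- and 534.2 and 323.8 CPM in Cre+, monocytes 179.6 to 247.8 CPM, conventional dendritic cells 95.4 to 145.6 CPM and macrophages 93.7 to 112.9 CPM. Neutrophils lay apart from monocytes and monocytes from conventional dendritic cells, while the ranges of macrophages and conventional dendritic cells overlapped. Mature dendritic cells, at 9 to 36 cells per library too few for the fit in 2 of the 4, held 488.4, 381.0, 232.9 and 636.3 CPM. The few mast cells or basophils, 1 to 9 per library, held between 44.4 and 540.1 CPM on at most 17 UMIs.

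Outside the leukocytes, endothelial cells carried Csf2rb at 97.3, 72.3, 68.1 and 33 CPM in replicates 1 to 4, while luminal cells held 0.582 to 0.984 CPM. The difference was 88.8-fold (log2 6.47 ± 0.39, edgeR adjusted p = 3.95e-18). Csf2ra went the other way and was lower in endothelial than in luminal cells (-1.68 ± 0.3, adjusted p = 8.33e-06). Those were the only member calls of this fit, 1 higher and 1 lower of 8 tested, against 22.9% and 25.9% of all genes. Csf1 did not pass (-0.66, adjusted p = 0.189). The companion gene of the pathway list Il3ra, the alpha subunit of the IL-3 receptor, which uses the same beta subunit, was also higher in endothelial cells (4.4 ± 0.32, adjusted p = 7.53e-16).

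Csf2rb has a close copy, Csf2rb2, which serves IL-3 alone. Of the 91-base windows in the last 500 bases of Csf2rb transcripts, 4.93% also occur in Csf2rb2, and 0.0% the other way round. Few reads near the 3' end would thus be ambiguous between the copies. Csf2rb2 stood in fibroblasts at 9.62, 9.04, 14.3 and 12.8 CPM and in neutrophils at 87.5, 62.8, 51.1 and 33.5 CPM. The pair was thus counted in different proportions. Fibroblasts held 0.25, 0.161, 0.205 and 0.0 UMIs of Csf2rb per UMI of Csf2rb2 in replicates 1 to 4. The 0.0 came from 0 against 29 UMIs. Macrophages held 2.52, 2.44, 2.69 and 3.12 in the same order, and neutrophils 6.86, 8.5, 10.4 and 9.67.

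Csf3r, the G-CSF receptor, had by far its highest level in neutrophils. They held 1590.2 and 1274.7 CPM in Cre- and 2032.0 and 1142.7 CPM in Cre+, and 74.0% ± 12.8 (SD, n = 4) of them had a Csf3r UMI after thinning. Monocytes followed at 98.4, 75.3, 66.4 and 54.5 CPM, a mean 20.5-fold lower, and macrophages at 25.2, 33.9, 23.6 and 12.3 CPM. The ranges of these 3 classes did not touch. Conventional dendritic cells held a mean of 2.84 CPM and luminal cells 0.158 to 0.408 CPM.

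**Figure D3:**
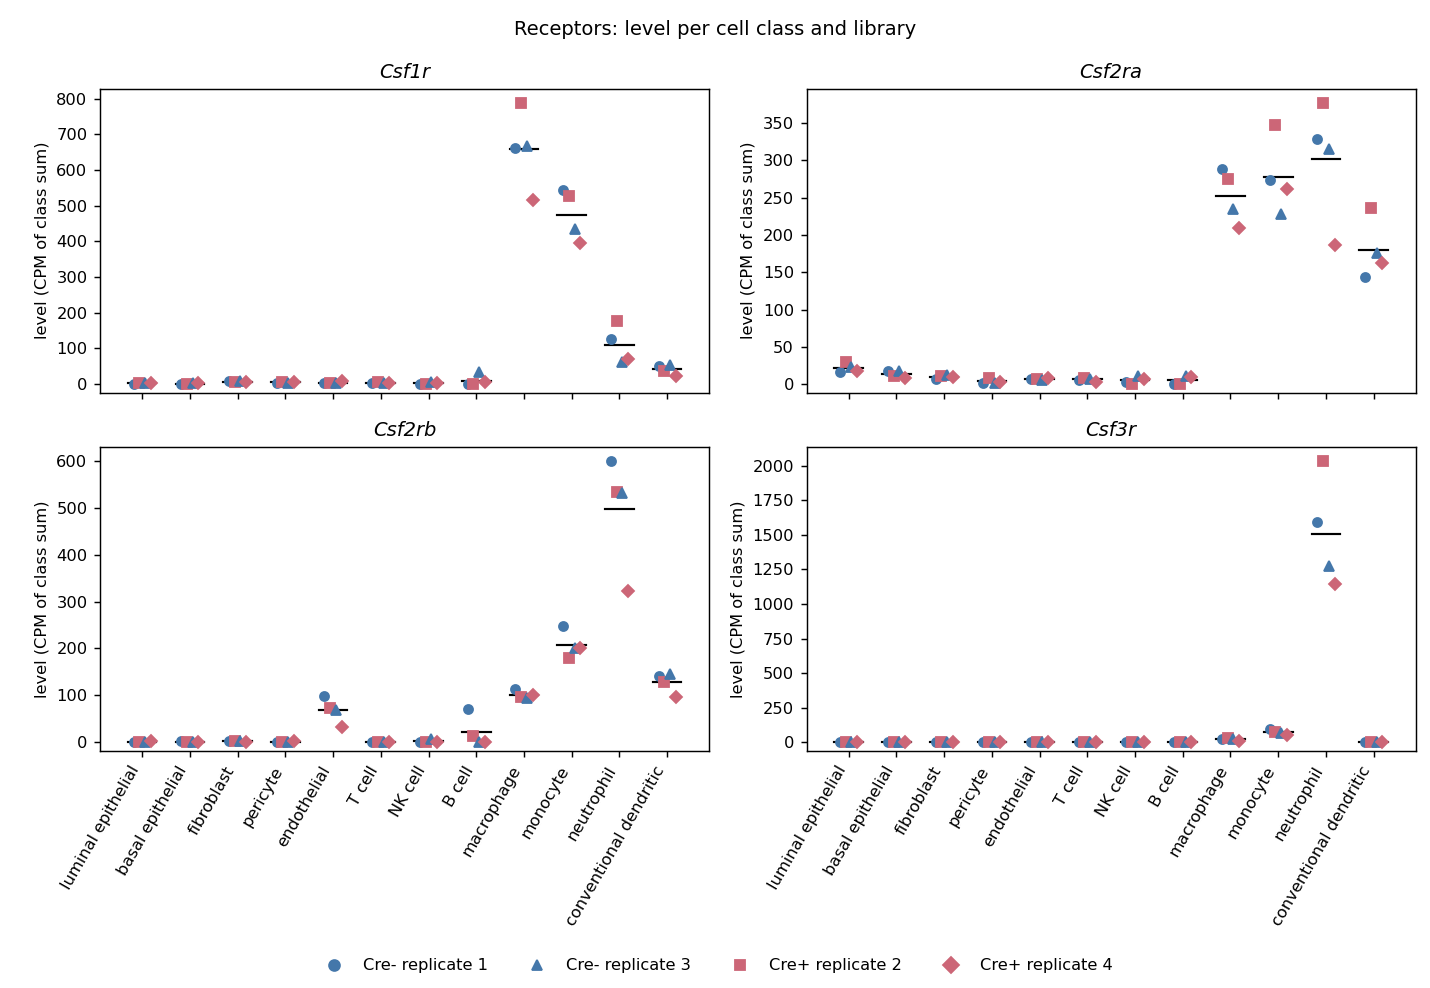
Level of each receptor gene (CPM of the summed counts, linear axis) in 12 cell classes, with 1 point per library (blue Cre-, red Cre+) and a bar at the mean of the 4 libraries. Csf1r peaks in macrophages and monocytes, Csf3r in neutrophils (1142.7 to 2032.0 CPM), Csf2ra is spread over 4 myeloid classes, and Csf2rb also appears in endothelial cells (33 to 97.3 CPM).

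The genes whose levels followed each member most closely over 13 cell classes, among 10226 genes, were found by Pearson's r of the log2 level of the class means, given as a description with no test. The highest were Carhsp1 for Csf1 (0.947), Pla2r1 for Il34 (0.997), Penk for Csf2 (0.816) and Lrg1 for Csf3 (0.912). For the receptors they were Lyz2 for Csf1r (0.974), Card9 for Csf2ra (0.982), Nsf for Csf2rb (0.937) and F630028O10Rik, ahead of Trem3 and Fpr2, for Csf3r (0.996, 0.981 and 0.979). The classes share libraries and differ in depth. The class means of Csf2 rest on few cells, and the endothelial peak of Csf3 rests on 1 library.

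Neutrophils and macrophages, the main receivers, differed in 5 of the 8 members. Csf3r (5.91 ± 0.32, edgeR adjusted p = 7.56e-17), Csf1 (5.75 ± 0.45, adjusted p = 7.71e-14) and Csf2rb (2.23 ± 0.32, adjusted p = 2.54e-07) were higher in neutrophils on the log2 scale, and Csf1r was lower (-2.73 ± 0.3, adjusted p = 5.19e-10). The 4 higher and 1 lower members stood against 17.1% and 27.8% of all genes, with a median of 2.49 for the members and -0.42 for all genes. Csf3 was the fourth of the higher members (2.75 ± 1.08, adjusted p = 0.0361), on 14 neutrophil UMIs. Its call was lost without replicate 1 (1.76 ± 1.65, adjusted p = 0.459) or 4 (adjusted p = 0.064), with DESeq2 (adjusted p = 0.147) and without the filter (adjusted p = 0.0565). Csf2ra did not pass (0.18 ± 0.25, adjusted p = 0.623), and 4 alternatives gave it negative values down to -0.31.

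Among the genes through which these receptors signal, 4 of 12 receptor-proximal genes were higher in neutrophils and 0 lower, where 17.1% of all genes tested were higher and 27.8% lower. They include Jak2, the kinase bound to Csf2rb and Csf3r (2.83 ± 0.32), and Syk (1.85 ± 0.28). The median log2 difference of that list was 0.33, against -0.42 for all genes. Of 9 genes of the STAT arm, 4 were higher and 0 lower, including Stat3 (1.52 ± 0.24), the main mediator of Csf3r, Stat5b (1.57 ± 0.27), which follows GM-CSF, and Socs1, an inhibitor of both (1.63 ± 0.55). Of 10 transcription factors of the myeloid lineages, 3 were higher, with Cebpb leading (3.03 ± 0.23), and 5 lower, Cebpa (-4.06 ± 0.42) and Irf8 (-6.19 ± 0.72) among them. Of the 4 shedding genes, Adam17, the protease that releases the ectodomains of Csf1 and Csf1r, was lower (-1.17 ± 0.24) and the others did not pass. Of the 5 partner genes tested, Il3ra was lower (-3.52 ± 0.66).

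Monocytes differed from macrophages in 2 members. Csf3r was higher by 1.63 ± 0.3 (edgeR adjusted p = 0.000113) and Csf2rb by 1.05 ± 0.32 (adjusted p = 0.0158), and 0 members were lower, against 6.88% and 10.9% of all genes. The Csf2rb call was lost without replicate 1 (adjusted p = 0.139), 2 (0.112) or 3 (0.202), without the filter on low counts (0.088) and with cells of several classes kept (0.158). Csf2ra did not pass (0.15 ± 0.25, adjusted p = 0.762) and changed sign in 3 alternatives. Of the receptor-proximal genes 3 of 12 were higher, led by Jak2 (1.49 ± 0.33), and of the STAT arm 5 of 9, among them Cish, a feedback inhibitor that STAT5 induces (1.57 ± 0.47), and Stat3 (0.96 ± 0.24), with 0 lower in either list.

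Conventional dendritic cells held less Csf1r than macrophages by 3.96 on the log2 scale (-3.96 ± 0.31, edgeR adjusted p = 7.23e-14) and less Csf3r (-2.86 ± 0.46, adjusted p = 8.29e-06). Csf1 was lower too (-4.09 ± 1.23, edgeR adjusted p = 0.0122, lost without replicate 3 at 0.125). In all, 3 members were lower and 0 higher, against 12.8% and 9.0% of all genes. The dendritic counts of Csf1 and Csf3r were only 1 and 9 UMIs in 138 cells. The GM-CSF receptor genes did not pass, with Csf2ra at -0.48 ± 0.25 (adjusted p = 0.185) and Csf2rb at 0.34 ± 0.31 (adjusted p = 0.526). Of the 10 lineage factors, 1 was higher and 4 lower, Cebpb (-3.3 ± 0.24) among the latter. Of the 4 shedding genes 3 were lower, Adam17 (-1.9 ± 0.24), Rhbdf2 (-2.42 ± 0.48) and Rhbdf1 (-3.23 ± 1.0).

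In the non-immune fits the direction of the same lists varied with the class. Fibroblasts had 2 partner genes higher than luminal cells and 0 lower of 5, Il3ra (4.94 ± 0.32) and Csf2rb2 (5.67 ± 0.5). Adam17 was higher both in fibroblasts (1.18 ± 0.2, adjusted p = 3.95e-06) and in endothelial cells (1.14 ± 0.21, adjusted p = 1.05e-05), and Rhbdf2, which guides the maturation of Adam17, was lower in fibroblasts (-2.37 ± 0.36) and endothelial cells (-1.7 ± 0.37). Receptor-proximal genes were 3 higher and 4 lower of 12 in fibroblasts, near the 26.7% and 26.3% of all genes. They were 6 higher and 2 lower in endothelial cells, against 22.9% and 25.9% of all genes, and 0 higher and 4 lower in basal cells, against 6.63% and 4.42%.

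Within macrophages the receptors differed in opposite directions between the gated subsets, which held 733 and 702 of the 5708 macrophages. Resident-like macrophages, gated on Folr2, Lyve1, Mrc1, Cd163, Cbr2 and Timd4, held 933.2, 1022.9, 957.6 and 761.3 CPM of Csf1r in replicates 1 to 4, and macrophages gated on Mmp12, Spp1, Gpnmb, Trem2, Fabp5 and Arg1 held 415.3, 507.6, 477.0 and 439.7 CPM. The Csf1r values of the subsets did not overlap and their mean log2 difference was 0.994. Csf3r showed the same direction (35.4 ± 6.91 against 13.9 ± 3.87 CPM, SD, n = 4 mice, log2 difference 1.371).

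The GM-CSF receptor genes went the other way. Csf2ra stood at 134.0 ± 25.5 CPM in the resident-like and 239.6 ± 51.7 CPM in the Mmp12 Spp1 subset (SD, n = 4 mice, log2 difference -0.831), and Csf2rb at 75.2 ± 8.62 and 121.5 ± 5.25 CPM (-0.697). Each of these 4 directions held in 4 of 4 mice, and the exact two-sided sign-flip permutation test gave p = 0.125 for each, the smallest p that 4 mice allow. The subsets held 81 to 332 and 94 to 312 cells per library. Their median depths were 8398.5 to 15392 UMIs and 22223.5 to 26379 UMIs, and the part of depth in these differences was not tested. Macrophages of neither gate, 4208 cells, held means of 668.6 CPM of Csf1r, 283.8 of Csf2ra, 100.5 of Csf2rb and 24.9 of Csf3r. Their Csf2ra (223.0 to 323.1 CPM) overlapped the Mmp12 Spp1 range (185.7 to 285.2 CPM) and lay above the resident-like one (111.9 to 167.7 CPM). High Csf2ra was thus not particular to the Mmp12 Spp1 subset.

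**Figure D4:**
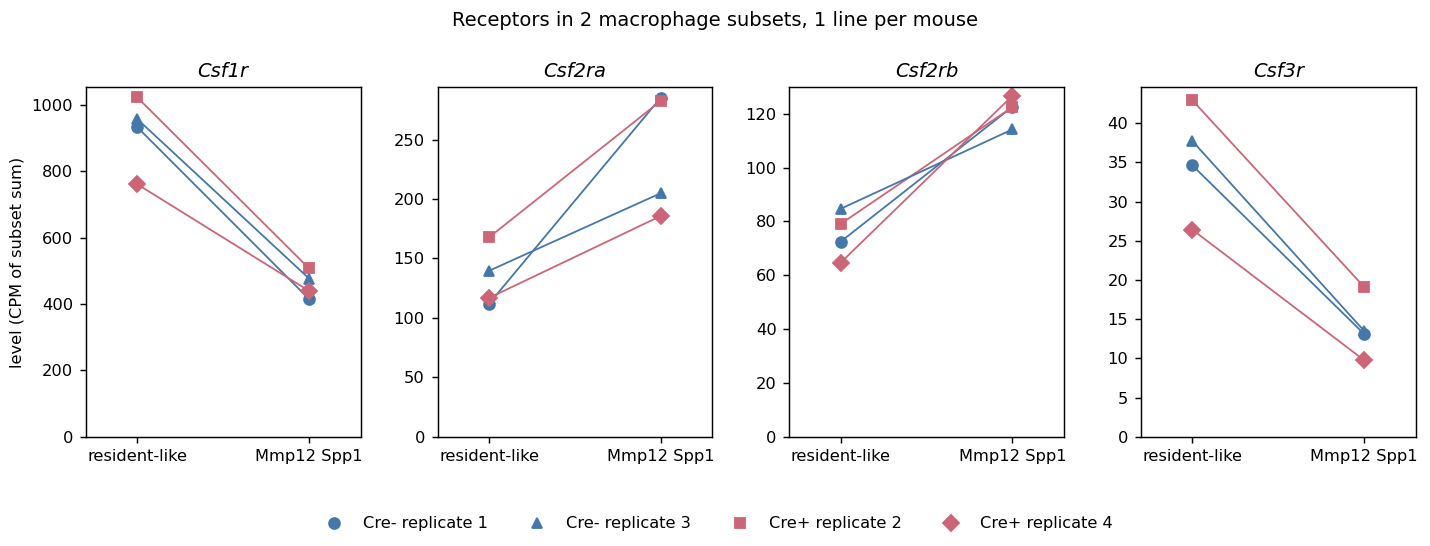
Level of the 4 receptor genes (CPM of the summed counts, axes from 0) in resident-like and Mmp12 Spp1 macrophages, with 1 line per mouse (blue Cre-, red Cre+). All 4 lines fall for Csf1r and Csf3r and rise for Csf2ra and Csf2rb, in both genotypes.

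Whether the family differed between the Cre genotypes was asked in luminal cells, fibroblasts, macrophages and neutrophils. In luminal cells all 8 members were tested and 0 called, against 0.0% of 15718 genes. In fibroblasts 6 were tested and 0 called, against 0.0% of 12306 genes. In macrophages 6 were tested and 0 called, against 0.0% of 12711 genes, and in neutrophils 5 were tested and 0 called, against 0.0% of 3740 genes. Unadjusted p-values under 0.05 in the edgeR quasi-likelihood test were given to 362, 656, 223 and 305 genes in that order, and DESeq2 called 52, 69, 9 and 8. With 2 mice per genotype, a count of 0 does not show that levels did not differ. Of the 42 pathway genes, 37, 32, 37 and 24 were tested and 0 called.

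Luminal Csf1 stood at 15.9 and 15.5 CPM in Cre- and at 16.7 and 38.9 CPM in Cre+ (log2 difference 0.93 ± 0.5, edgeR adjusted p = 1.0). Both Cre+ values lay above both Cre- values, but that of replicate 2 lay close to them. In replicate 4, squamous epithelial cells, gated on keratinocyte genes such as Krt6a and Sprr1a, held 99.2 CPM of Csf1 from 425 UMIs in 50 of 111 cells, and its other luminal cells held 33.5 CPM. Such squamous cells numbered 3, 1 and 0 in replicates 1 to 3. Luminal Csf3 stood at 4.89 and 5.95 CPM in Cre- and 3.76 and 3.08 CPM in Cre+, without overlap (-0.62 ± 0.37, edgeR adjusted p = 1.0).

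In fibroblasts, Csf1 stood at 191.2 ± 4.17 CPM in Cre- and 205.9 ± 20.4 CPM in Cre+ (SD, n = 2 mice each, log2 difference 0.15 ± 0.13, edgeR adjusted p = 0.988). Il34 stood at 45.0 ± 0.919 and 31.0 ± 10.1 CPM, without overlap (-0.44 ± 0.23, edgeR adjusted p = 0.988). In neutrophils, Csf1 stood at 332.0 ± 19.4 CPM in Cre- and 379.3 ± 121.6 CPM in Cre+ (SD, n = 2 mice each, 0.43 ± 0.36, edgeR adjusted p = 0.798), with the Cre- libraries inside the Cre+ range.

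The receptors of macrophages gave small estimates. Csf1r stood at 664.0 ± 3.61 CPM in Cre- and 651.4 ± 193.2 CPM in Cre+ (SD, n = 2 mice each, log2 difference 0.084 ± 0.26, edgeR adjusted p = 1.0), with the Cre+ libraries on either side of the Cre- ones. The log2 differences of Csf2ra, Csf2rb and Csf3r were 0.0074 ± 0.22, 0.071 ± 0.2 and 0.0052 ± 0.43. The estimate for Csf3r of macrophages was -0.81 (edgeR adjusted p = 0.000233) when replicate 2 was left out, which leaves 1 Cre+ library. Neutrophil Csf2rb stood at 566.2 ± 48.2 CPM in Cre- and 429.0 ± 148.8 CPM in Cre+ (-0.27 ± 0.3, adjusted p = 0.869) and Csf3r differed by 0.29 ± 0.32 (adjusted p = 0.858).

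**Figure D5:**
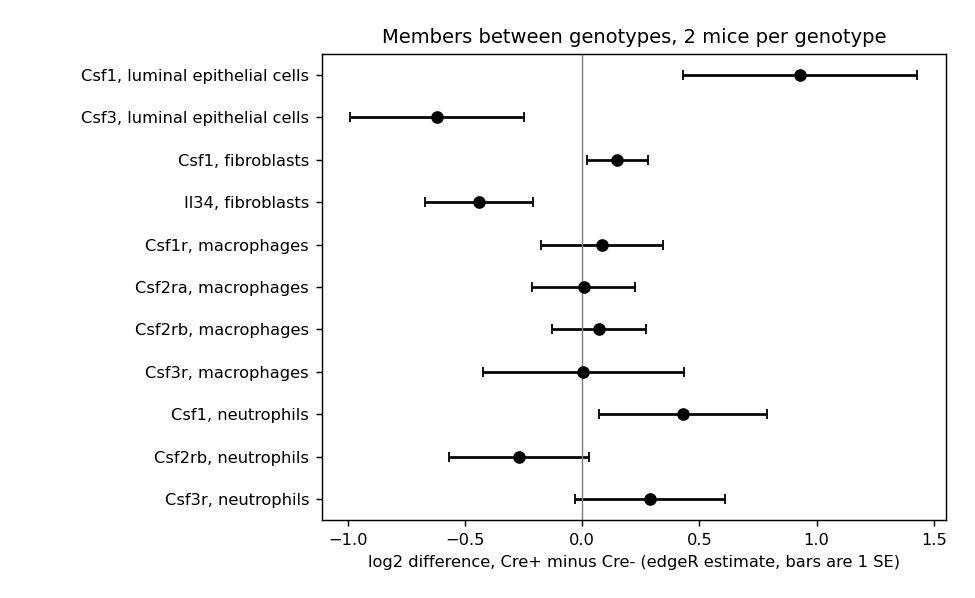
Log2 difference between Cre+ and Cre- (edgeR estimate, bars are 1 SE) for 11 pairs of a member and a cell class, with 2 mice per genotype. Estimates run from -0.62 (Csf3 of luminal cells) to 0.93 (Csf1 of luminal cells), and 0 of them passed the adjusted threshold.

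Shares of cells with a UMI, thinned to 1000 UMIs, were compared for 13 pairs of a member and a class. The genotypes did not overlap for Csf2rb in neutrophils, at 40.9% ± 3.04 in Cre- and 26.4% ± 3.96 in Cre+ (SD, n = 2 mice each, exact permutation p = 0.333), for Csf1 in fibroblasts, at 13.8% ± 2.83 and 19.3% ± 1.98 (SD, n = 2 mice each, exact permutation p = 0.333), and for Csf2 in T cells, at 0.156% ± 0.221 and 0.677% ± 0.327 (SD, n = 2 mice each, exact permutation p = 0.333). That two-sided p is the smallest that 2 mice against 2 allow, and adjusted over the 13 pairs it is 1.0. Randomly labeled mice separate without overlap with that same probability, for shares as for levels. These separations therefore show neither a difference nor the lack of one. The CPM levels of Csf2rb in neutrophils did overlap between genotypes. The Csf2 shares ran from 0% to 0.909% on 220 to 321 T cells per library. The change of a class difference with genotype was also tested, as an interaction in the model of classes, and the edgeR adjusted p of every member was 0.977 or above. That test called only 0 to 7 of 13235 genes per comparison, so the lack of member calls does not show equal class differences.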

How the data were processed

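The deposited files hold UMI counts for each barcode and gene, which the authors made with Cell Ranger (6.1.2 for replicates 1 to 3, as called cells, and 4 for replicate 4, with all barcodes, per the file headers), with no normalization. The labels' notes name a human build beside Ensembl mouse gene identifiers, and the mouse build is not given in the sources used here. The 8 members, the marker and pathway lists and the tests were chosen with earlier results of these data known. The named genes were the members, at most 4 genes of a pathway list per comparison (those with the smallest adjusted p), and the genes most like each member. A gene that this rule also names is not reported here.

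Counts were summed per library and class of at least 10 cells, and CPM carry exact Poisson and shares Clopper-Pearson 95% intervals in the tables, which cover counting error only. The main test was edgeR 4.0.16 (quasi-likelihood, TMM, filterByExpr, limma 3.58.1, R 4.3.3) with Benjamini-Hochberg adjustment over all genes and a threshold of 0.05, with DESeq2 1.42.0 as the other tool. Genotypes were fitted within each class, and classes in 1 model without the mouse as a block, although classes of 1 library come from 1 mouse and are paired. Since 1 library is taken to stand for 1 mouse, p-values between genotypes are read as measuring the spread between mice. Several-class barcodes, which include doublets, were left out, except for overlaps of basal with luminal cells and of pericytes with fibroblasts. No doublet caller was run. Tests were checked on simulated data. The luminal genotype test did not recover the changes put in, so its lack of calls is no evidence of equal levels. Changes of 1 on the log2 scale were recovered to 13.1% (macrophage genotype), 7.29% (fibroblasts against luminal cells) and 13.4% (neutrophils against macrophages). For changes of 2 these shares were 80.6%, 80.8% and 65.3%. The class simulations fitted only the 2 classes compared, while the reported class fits held all classes in 1 model. Their shares therefore need not hold for the reported class fits. The other fits were not simulated. Python 3.11.15, numpy 2.4.6, scipy 1.17.1, pandas 2.3.3 and matplotlib 3.10.9 did the rest. Only these 4 libraries were analysed.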

Additional observations from a re-analysis of the deposited data

Results flagged for a closer look

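Of 33 levels of a member in a class, 3 had a library far from the other 3 by Dixon's test for 4 values, which chance gives in about 1 of 20. Luminal Csf1 stood at 38.9 CPM in Cre+ replicate 4, against 15.5 to 16.7 CPM in the other libraries, a gap of 0.949 of the whole range. This library also held 111 of the squamous cells, at 99.2 CPM of Csf1, and its part in the difference was not tested beyond the 33.5 CPM of its other luminal cells. Luminal Csf1r stood at 1.19 CPM in Cre- replicate 1, against 2.63 to 2.81 CPM in the others (gap 0.889). Csf2 of T cells stood at 36.9 CPM in Cre+ replicate 2, against 6.14 to 9.82 CPM in the others (gap 0.88), with 58 of its 64 UMIs in 2 cells.

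The empty droplets of Cre+ replicate 4, which no comparison used, held members as free RNA. Its 2078989 barcodes of 1 to 100 UMIs summed to 4981956 UMIs, of which 107 were of Csf1, 10 of Il34, 17 of Csf2, 6 of Csf3, 780 of Csf1r, 525 of Csf2ra, 138 of Csf2rb and 38 of Csf3r. The corresponding levels were 21.5, 2.01, 3.41, 1.2, 156.6, 105.4, 27.7 and 7.63 CPM. The files of the other libraries hold called cells, so free RNA was measured in 1 library only.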

How the results depend on the processing

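No paired analysis was possible between genotypes because Cre- and Cre+ mice share no replicate number. For the 6 class comparisons the replicate block (same mouse) kept every total of called genes within 1.5 times the unblocked one, but genes called lower in basal than in luminal cells rose from 585 to 917 (53.3% of calls higher, against 60%). Against 0 genes called between genotypes, DESeq2 called 52 in luminal cells, 69 in fibroblasts, 9 in macrophages and 8 in neutrophils, no filter called 494, 41 and 97 in fibroblasts, macrophages and neutrophils, 1 more marker called 2 and the order-of-magnitude limit on replicate 4 called 24 in neutrophils (the limit leaves out its neutrophils). With cells of several classes kept, 878 genes differed between basal and luminal cells, against 1463. Leaving out 1 library gave 0 to 16 genotype calls in luminal cells, 0 to 37 in fibroblasts, 0 to 2945 in macrophages (2945 without replicate 2, 535 without replicate 4) and 0 to 345 in neutrophils (345 without replicate 2). The class ranges were 820 to 1266 (basal), 5271 to 6516 (endothelial), 5721 to 6990 (fibroblasts), 4974 to 5338 (neutrophils), 1565 to 1970 (monocytes) and 1934 to 2917 (conventional dendritic cells). Over 38 fits of a member, 423 alternative values kept direction and side of the threshold, 19 lost the call, 1 gained it (Csf2ra, dendritic cells against macrophages, 1 more marker, -0.64) and 33 changed sign, each for a result that had not passed. Of these, Csf3r in macrophages between genotypes also passed without replicate 2 (-0.81, edgeR adjusted p = 0.000233). Between genotypes these were, in macrophages, Csf1r at -0.18, Csf2ra at -0.0063, -0.14, -0.1 and -0.00068, Csf2rb at -0.029 and -0.053 and Csf3r at -0.00083, -0.012, -0.81, -0.0077, -0.0025, -0.071, -0.025, -0.041 and -0.0015, and in neutrophils Csf1 at -0.14, -0.13 and -0.14 and Csf3r at -0.0081. Between classes they were Csf1 in basal cells at 0.14, 0.21, 0.55, 0.25, 0.039 and 0.059, and Csf2ra in neutrophils at -0.046, -0.12, -0.081 and -0.31 and in monocytes at -0.08, -0.032 and -0.0049. Without thinning the share of cells with a UMI was 78.8% (fibroblasts), 42.9% (neutrophils) and 25.1% (luminal) for Csf1, 76.7% (pericytes) and 28.3% (fibroblasts) for Il34, 3.39% for Csf2 in T cells, 3.93% for Csf3 in luminal cells, 90.3%, 77.1%, 57.2% and 25.7% for Csf1r, Csf2ra, Csf2rb and Csf3r in macrophages, and 69.7% and 90.9% for Csf2rb and Csf3r in neutrophils. Upper limits of 5000 genes and 30000 UMIs gave 193.0 CPM of Il34 in pericytes and 2.52 CPM and 0.234% of Csf3 in luminal cells, 1 more marker gave 162.8 CPM of Il34 in pericytes, and cells of several classes kept gave 125.2 CPM there, 241.5 CPM of Csf1 and 375.4 CPM of Csf2rb in neutrophils. With 1 library left out, the fits that changed sign reached 0.28 (Csf1r), 0.13 (Csf2ra), 0.18 (Csf2rb) and 0.51 (Csf3r) in macrophages and 0.8 (Csf1) and 0.54 (Csf3r) in neutrophils between genotypes, and -0.24 (Csf1, basal), 0.32 (Csf2ra, neutrophils) and 0.033 (Csf2ra, monocytes) between classes. The cause of these shifts was not tested. Neutrophils of replicate 2 (24 cells) and rare ligands limit the depth, and Csf2 and Csf3 levels rest on few cells.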

Other observations

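Csf1 was also unevenly spread within T cells and macrophages. In CD4 T cells with fewer than 2 regulatory markers, Csf1 reached 100.2 CPM in Cre- replicate 1 (13 UMIs in 4 of 25 cells). It stood at 27.9 CPM in Cre+ replicate 2 (6 UMIs in 4 of 35 cells). CD8 T cells of the same libraries held 1 UMI each. These libraries held most of the 22 Csf1 UMIs of such CD4 cells. Replicates 3 (67 cells) and 4 (14 cells) were lower, and the lowest library stood at 0 CPM. In Mmp12 Spp1 macrophages Csf1 stood at 12, 7.06, 7.11 and 11.6 CPM in replicates 1 to 4, and in resident-like macrophages at 4.03, 3.25, 2.45 and 1.32 CPM, without overlap. These values were seen after the data were examined and carry no test.

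Csf2rb2 was counted in endothelial cells at 83.9, 41.1, 43.8 and 14.0 CPM in replicates 1 to 4, beside Csf2rb at 97.3, 72.3, 68.1 and 33 CPM, and both were lowest in Cre+ replicate 4, whose 79 endothelial cells had a median depth of 5560 UMIs.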
